A study of Mus musculus with 14 samples.

Results

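The 10 genes described here make up the core of antigen presentation by major histocompatibility complex (MHC) class I: *H2-K1*, *H2-D1*, *B2m*, *Tap1*, *Tap2*, *Tapbp*, *Psmb8*, *Psmb9*, *Psmb10* and *Nlrc5*. They were chosen by symbol, for their role in the pathway, with earlier results of these data known. Counts of members called are therefore a description. All 10 were found among the 18781 genes of the deposited expression table. Of these, 9 passed the filter on low values and are among the 12802 genes tested, while *Nlrc5* was below it and is described by its values.

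Small intestinal crypt-derived organoids, cultures of epithelial cells grown without further treatment, were sequenced as stranded mRNA libraries with single reads of 50 bases, to compare the effects of deleting *Rnaseh2b*, *Atg16l1* or both. WT organoids (4 libraries) carried the genotype ATG16L1flox/flox_RNaseH2Bflox/flox without Cre. *Atg16l1* ΔIEC organoids (4 libraries) were ATG16L1flox/flox_VillinCre+/-, *Rnaseh2b* ΔIEC organoids (2 libraries) were RNaseH2Bflox/flox_VillinCre+/-, and *Atg16l1/Rnaseh2b* ΔIEC organoids (4 libraries) were ATG16L1flox/flox_RNaseH2Bflox/flox_VillinCre+/-, the group in which both genes were targeted, called the double deletion below. Villin-Cre acts in intestinal epithelial cells, and since the WT group has no Cre, the effect of Cre and that of a deletion cannot be told apart in comparisons with WT. The study left 2 further *Rnaseh2b* ΔIEC samples out for their read counts, and the table holds no column for them.

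MHC class I molecules show peptides from inside the cell to CD8 T cells. Proteasomes break proteins into peptides, the TAP transporter moves these into the endoplasmic reticulum, and tapasin helps to load them onto a heavy chain paired with β2-microglobulin. Interferons raise the transcription of these genes in many cell types, including intestinal epithelial cells, and the immunoproteasome subunits then take the place of the standard catalytic subunits.

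Values are on the log2 scale of the deposited table, so a difference of 1 is a doubling on that scale. The transformation behind them is not named, and the table pulls the values of low genes together: the median SD within a genotype was 0.02 for the 846 genes with a mean from 1 to 2, against 0.11 for the 761 genes from 6 to 7, so differences of low genes are understated. The depth of the libraries is unknown. All p-values are two-sided. A gene is said to have risen or fallen when its limma p-value, adjusted over all 12802 genes tested, was under 0.05. The exact permutation test used for single genes cannot go below p = 0.029 with 4 libraries against 4, or below 0.067 with 2 against 4. These p-values measure the spread between the libraries at hand, and nothing in the labels says that libraries come from separate cultures or animals. After the mean of each genotype was taken off, libraries 1 and 2, and likewise 3 and 4, of a genotype deviated together. The r across genes was from 0.41 to 0.86 in 6 such pairs of the genotypes other than *Rnaseh2b* ΔIEC. That group holds only libraries 1 and 2, whose deviations from their mean mirror each other, so their likeness could not be checked.

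Lane 1 held the 4 WT libraries and lane 2 those of both single deletions, while the double deletion had libraries 1 and 2 in lane 2 and the other pair in lane 1. Lane can therefore be separated from genotype only through the double deletion. There lane coincides with the pairing of libraries, so a lane covariate also takes up any difference between the pairs. In all comparisons with WT the same 4 WT libraries serve as controls.

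The targeted genes were checked first. *Atg16l1*, an autophagy gene, had values of 9.43, 9.54, 9.44 and 9.44 in WT libraries 1 to 4, 9.52 and 9.53 in *Rnaseh2b* ΔIEC libraries 1 and 2, 6.87, 7.35, 6.75 and 6.74 in *Atg16l1* ΔIEC libraries 1 to 4 and 8.37, 8.14, 8.57 and 8.47 in *Atg16l1/Rnaseh2b* ΔIEC libraries 1 to 4. Every *Atg16l1* ΔIEC library was below every *Atg16l1/Rnaseh2b* ΔIEC library, and these were below every library with intact *Atg16l1*. *Rnaseh2b*, which encodes a subunit of the enzyme that removes ribonucleotides from DNA, had values of 8.47, 8.41, 8.58 and 8.70 in WT libraries 1 to 4, 7.21 and 7.15 in *Rnaseh2b* ΔIEC libraries 1 and 2, 8.71, 8.72, 8.58 and 8.48 in *Atg16l1* ΔIEC libraries 1 to 4 and 7.92, 7.68, 7.79 and 7.84 in *Atg16l1/Rnaseh2b* ΔIEC libraries 1 to 4. Here the *Rnaseh2b* ΔIEC libraries were lowest, followed by the *Atg16l1/Rnaseh2b* ΔIEC libraries, without overlap with the other groups. The labels thus match the values, but both targeted transcripts were higher in the double deletion than in the single deletion of that gene, by 1.46 for *Atg16l1* (limma adjusted p = 1.96e-05) and 0.63 for *Rnaseh2b* (limma adjusted p = 0.00074). Both adjusted p-values were above 0.05, at 0.109 and 0.186, when libraries 1 and 2, and 3 and 4, of a genotype were averaged. The part of this in the results for the double deletion was not tested.

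In *Rnaseh2b* ΔIEC organoids, 6 of the 9 tested members rose against WT: *H2-D1*, *B2m*, *Tap1*, *Tap2*, *Psmb8* and *Psmb9*. Among all tested genes, 14.4% rose in this comparison. In *Atg16l1* ΔIEC organoids, 4 of 9 rose, namely *H2-D1*, *Tap1*, *Tap2* and *Psmb9*, beside 8.73% of all tested genes. Members called lower numbered 0 in both, where 12.3% and 10.4% of all tested genes fell (limma, 0 of the members with a negative difference had an unadjusted p under 0.05). In double-deletion organoids, limma called 0 of 9 members higher and 0 lower than in WT, where 8.1% and 8.01% of all tested genes were called. There 2 members, *H2-D1* and *Tap2*, had a limma unadjusted p under 0.05, as did 4224 of the 12802 tested genes. The median log2 difference over the 9 members was 0.33 in *Rnaseh2b* ΔIEC organoids, 0.15 in *Atg16l1* ΔIEC and -0.05 in double-deletion organoids against WT, where the median over all tested genes was 0.00 in each comparison. The size of the rises was modest, from 1.15-fold for *H2-D1* to 1.5-fold for *Psmb9* in *Rnaseh2b* ΔIEC organoids.

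Whether deleting *Rnaseh2b* acted differently when *Atg16l1* was deleted too was tested as an interaction, the difference between the double deletion and *Atg16l1* ΔIEC minus the difference between *Rnaseh2b* ΔIEC and WT. It was negative for all 9 members and passed for 7, in every case but *Tapbp* and *Psmb10*, beside 18.1% of all tested genes with a negative and 17% with a positive interaction past the threshold. Its median over the members was -0.49. When lane was a covariate, 3 of the 7 interactions passed (*B2m*, *Tap1* and *Tap2*), as did 3 of the 6 rises in *Rnaseh2b* ΔIEC (the same genes) and 1 of the 4 in *Atg16l1* ΔIEC organoids (*Tap1*), and *H2-K1* was then called lower in double-deletion organoids than in WT. Of all tested genes, that fit called 6.19% higher in *Rnaseh2b* ΔIEC and 6.07% higher in *Atg16l1* ΔIEC organoids, 5.87% lower in double-deletion organoids and 10.6% with a negative interaction. Within lane 1 alone, limma called 0 members in double-deletion organoids against WT, where 4.66 and 5.58% of all tested genes were called higher and lower. Averaging the paired libraries, which leaves 1 *Rnaseh2b* ΔIEC value and 2 for each other genotype, left 0 members called by limma in any comparison, and also ended the calls for *Rnaseh2b* in *Rnaseh2b* ΔIEC organoids (adjusted p = 0.0647). Of all tested genes, 0 were then called in *Rnaseh2b* ΔIEC organoids against WT. The count for *Rnaseh2b* ΔIEC organoids was 2 without *Rnaseh2b* ΔIEC library 1 and 1 without library 2, where 672 and 668 of the 12802 tested genes were called higher, against 1848 with both. The count for *Atg16l1* ΔIEC organoids was 1 without *Atg16l1* ΔIEC library 3, and 2 without *Atg16l1* ΔIEC library 4, WT library 3 or WT library 4, where 760, 721, 802 and 882 of all tested genes were called higher, against 1117 with every library. Without *Atg16l1/Rnaseh2b* ΔIEC library 3, or with libraries scaled to equal totals, *H2-D1* was called higher in double-deletion organoids than in WT.

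**Figure D1:**
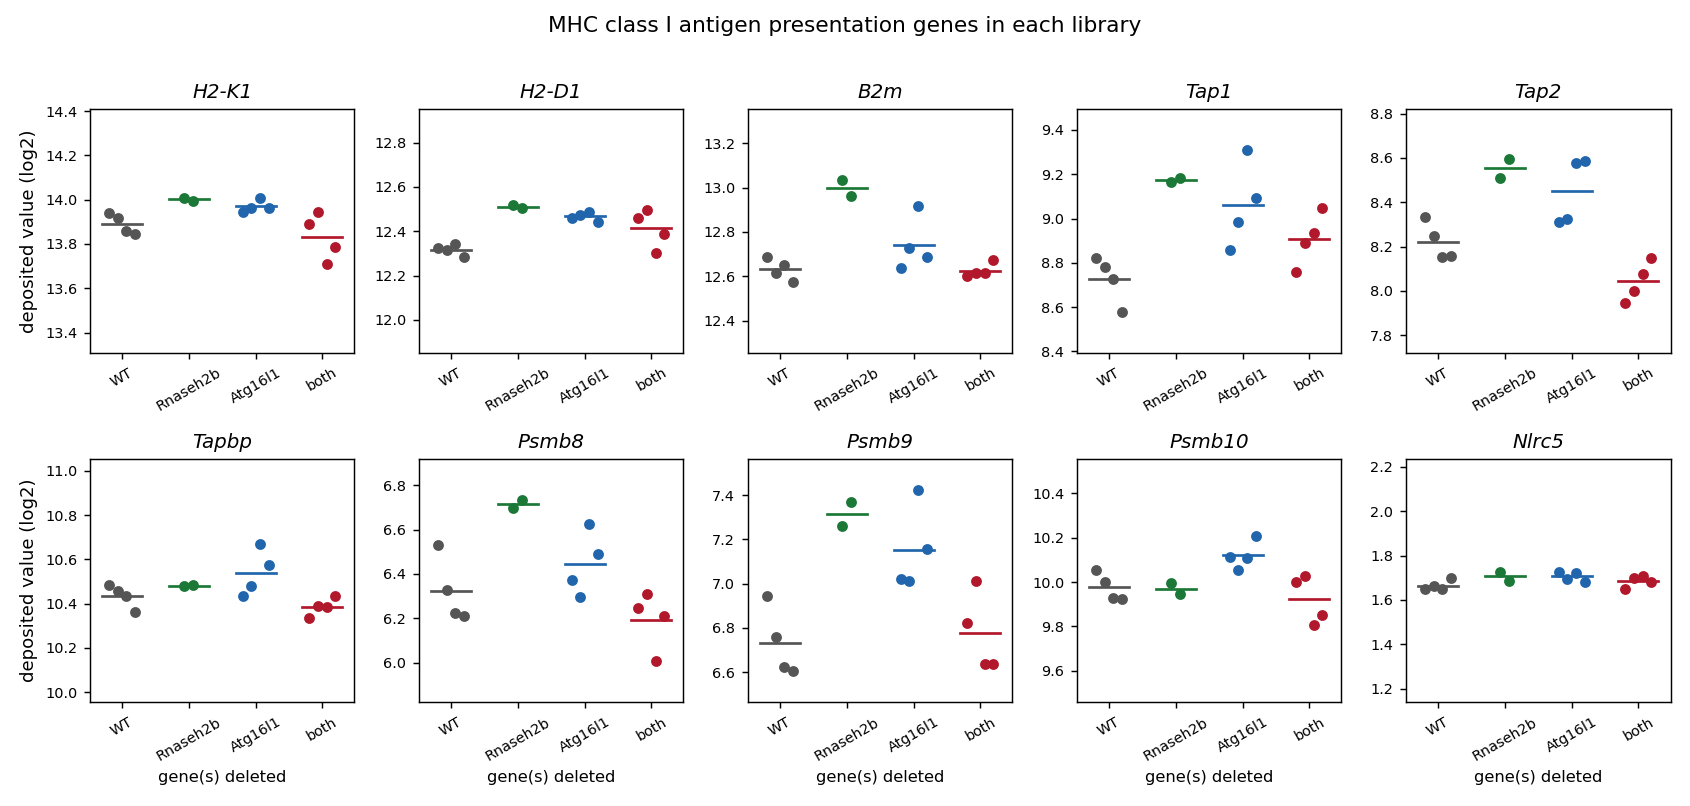
Deposited log2 values of the 10 members, 1 point per library with the mean of each genotype as a line; every panel spans the same range on the log2 scale. Both *Rnaseh2b* ΔIEC libraries lie above the 4 WT libraries for *H2-K1*, *H2-D1*, *B2m*, *Tap1*, *Tap2*, *Psmb8* and *Psmb9*. The share of all tested genes that separate in this way was not counted. *H2-K1* was not called by limma (adjusted p = 0.164), and its difference was -0.06 with lane as a covariate.

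The classical heavy chains hold the peptide. *H2-K1* had values of 13.94, 13.92, 13.86 and 13.85 in WT libraries 1 to 4, 14.01 and 13.99 in *Rnaseh2b* ΔIEC libraries 1 and 2, 13.95, 13.96, 14.01 and 13.96 in *Atg16l1* ΔIEC libraries 1 to 4 and 13.89, 13.94, 13.71 and 13.79 in *Atg16l1/Rnaseh2b* ΔIEC libraries 1 to 4. Every library of both single deletions was above every WT library, while the *Atg16l1/Rnaseh2b* ΔIEC libraries spread from below to above WT, with the lane 2 libraries 1 and 2 on top. Against WT the log2 difference was 0.11 (95% interval -0.01 to 0.23, adjusted p = 0.164) in *Rnaseh2b* ΔIEC, 0.08 (95% interval -0.02 to 0.18, adjusted p = 0.246) in *Atg16l1* ΔIEC and -0.06 (95% interval -0.16 to 0.04, adjusted p = 0.398) in double-deletion organoids. These limma tests missed the threshold, which does not show that the levels were equal, and the exact permutation p was 0.029 in *Atg16l1* ΔIEC organoids. The interaction was -0.25 (SE 0.07, adjusted p = 0.0181). Its adjusted p was 0.0721 without *Rnaseh2b* ΔIEC library 1 and 0.0617 without library 2, and with lane as a covariate its value was 0.00 (adjusted p = 0.974). The differences from WT were then -0.06 in *Rnaseh2b* ΔIEC and -0.09 in *Atg16l1* ΔIEC organoids, of the opposite sign, and -0.14 in double-deletion organoids (adjusted p = 0.034). The fit within lane 1 alone did not call *H2-K1* in double-deletion organoids.

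*H2-D1* had values of 12.32, 12.31, 12.34 and 12.28 in WT libraries 1 to 4, 12.52 and 12.50 in *Rnaseh2b* ΔIEC libraries 1 and 2, 12.46, 12.47, 12.49 and 12.44 in *Atg16l1* ΔIEC libraries 1 to 4 and 12.46, 12.50, 12.30 and 12.39 in *Atg16l1/Rnaseh2b* ΔIEC libraries 1 to 4. All libraries of both single deletions were above all WT libraries, and the double deletion overlapped with WT through its library 3. *H2-D1* rose by 0.20 (SE 0.04, adjusted p = 0.00689) in *Rnaseh2b* ΔIEC and by 0.15 (SE 0.04, adjusted p = 0.0119) in *Atg16l1* ΔIEC organoids in the limma fit, and differed by 0.10 (95% interval 0.02 to 0.18, adjusted p = 0.0838) in double-deletion organoids. The interaction was -0.25 (SE 0.06, adjusted p = 0.00511). The rise in *Rnaseh2b* ΔIEC organoids had an adjusted p of 0.0712 without *Rnaseh2b* ΔIEC library 1 and of 0.0533 without library 2. In double-deletion organoids the difference was 0.13 without library 3 (adjusted p = 0.0171) and 0.11 with total scaling (adjusted p = 0.0447). In the fit with lane, the difference was 0.06 in *Rnaseh2b* ΔIEC (adjusted p = 0.405) and 0.02 in *Atg16l1* ΔIEC organoids (adjusted p = 0.815), and the interaction was -0.05 (adjusted p = 0.611).

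*B2m*, which encodes the light chain shared by all class I molecules, had values of 12.68, 12.61, 12.65 and 12.58 in WT libraries 1 to 4, 13.03 and 12.96 in *Rnaseh2b* ΔIEC libraries 1 and 2, 12.64, 12.73, 12.92 and 12.69 in *Atg16l1* ΔIEC libraries 1 to 4 and 12.60, 12.62, 12.61 and 12.67 in *Atg16l1/Rnaseh2b* ΔIEC libraries 1 to 4. Both *Rnaseh2b* ΔIEC libraries were above all 12 others, and the remaining genotypes overlapped, with *Atg16l1* ΔIEC library 3 the highest of them. *B2m* rose by 0.37 (SE 0.06, adjusted p = 0.00127) in *Rnaseh2b* ΔIEC organoids by limma, which is 1.29-fold. The exact permutation p was 0.067, the smallest that 2 libraries against 4 allow. Against WT, the difference was 0.11 (95% interval 0.00 to 0.22, adjusted p = 0.135) in *Atg16l1* ΔIEC and -0.01 (95% interval -0.11 to 0.10, adjusted p = 0.953) in double-deletion organoids, the latter 0.01 with upper quartile scaling, total scaling and lane as a covariate. The interaction was -0.49 (SE 0.08, adjusted p = 0.000706). The rise in *Rnaseh2b* ΔIEC organoids and the interaction passed in each of the 14 fits that left out 1 library, and both passed with lane as a covariate. Leaving out 1 library does not address the pairing of libraries, and both calls were lost with paired libraries averaged.

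*Tap1* and *Tap2* encode the subunits of the peptide transporter. *Tap1* had values of 8.82, 8.78, 8.73 and 8.58 in WT libraries 1 to 4, 9.17 and 9.18 in *Rnaseh2b* ΔIEC libraries 1 and 2, 8.86, 8.98, 9.31 and 9.09 in *Atg16l1* ΔIEC libraries 1 to 4 and 8.76, 8.89, 8.93 and 9.05 in *Atg16l1/Rnaseh2b* ΔIEC libraries 1 to 4. Every library of both single deletions was above every WT library, with *Atg16l1* ΔIEC library 3 the highest, and the *Atg16l1/Rnaseh2b* ΔIEC libraries lay between, overlapping with both WT and *Atg16l1* ΔIEC. *Tap1* rose by 0.45 (SE 0.11, adjusted p = 0.00931) in *Rnaseh2b* ΔIEC and by 0.33 (SE 0.09, adjusted p = 0.0194) in *Atg16l1* ΔIEC organoids by limma. The difference in double-deletion organoids was 0.18 (95% interval -0.01 to 0.37, adjusted p = 0.177). The interaction was -0.60 (SE 0.14, adjusted p = 0.00545). The adjusted p in *Rnaseh2b* ΔIEC organoids was 0.07 without *Rnaseh2b* ΔIEC library 1 and 0.077 without library 2. In *Atg16l1* ΔIEC organoids it was 0.0509 without *Atg16l1* ΔIEC library 3, 0.052 without *Atg16l1* ΔIEC library 4 and 0.0563 without WT library 4.

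*Tap2* had values of 8.33, 8.25, 8.15 and 8.16 in WT libraries 1 to 4, 8.51 and 8.60 in *Rnaseh2b* ΔIEC libraries 1 and 2, 8.31, 8.33, 8.58 and 8.59 in *Atg16l1* ΔIEC libraries 1 to 4 and 7.94, 7.999, 8.08 and 8.15 in *Atg16l1/Rnaseh2b* ΔIEC libraries 1 to 4. The *Rnaseh2b* ΔIEC libraries were above WT, the *Atg16l1* ΔIEC libraries formed a lower and a higher pair of which the lower overlapped with WT, and all 4 *Atg16l1/Rnaseh2b* ΔIEC libraries were below all others. *Tap2* rose by 0.33 (SE 0.09, adjusted p = 0.0178) in *Rnaseh2b* ΔIEC and by 0.23 (SE 0.07, adjusted p = 0.0487) in *Atg16l1* ΔIEC organoids by limma. In double-deletion organoids the difference was -0.18 (95% interval -0.34 to -0.02, adjusted p = 0.113), with an exact permutation p of 0.029. The interaction was -0.74 (SE 0.12, adjusted p = 0.00058), and it passed in all 14 fits that left out 1 library and with lane as a covariate. Its call was lost with paired libraries averaged. The rise in *Rnaseh2b* ΔIEC organoids had an adjusted p of 0.075 without *Rnaseh2b* ΔIEC library 1 and 0.148 without library 2. The rise in *Atg16l1* ΔIEC organoids was lost in 9 of the 14 fits, with adjusted p up to 0.14, namely without either *Rnaseh2b* ΔIEC library, *Atg16l1* ΔIEC library 3 or 4, *Atg16l1/Rnaseh2b* ΔIEC library 2 or 3, or WT library 2, 3 or 4. It was also lost with no filter (0.0635) and when only the groups compared were fitted (0.0748). With lane as a covariate the call was lost although the difference was larger, at 0.37 (limma adjusted p = 0.0658).

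*Tapbp* encodes tapasin, which bridges the transporter and the empty class I molecule. Its values were 10.49, 10.46, 10.43 and 10.36 in WT libraries 1 to 4, 10.48 and 10.48 in *Rnaseh2b* ΔIEC libraries 1 and 2, 10.43, 10.48, 10.67 and 10.58 in *Atg16l1* ΔIEC libraries 1 to 4 and 10.34, 10.39, 10.38 and 10.44 in *Atg16l1/Rnaseh2b* ΔIEC libraries 1 to 4. All genotypes overlapped with WT, and the highest values were those of *Atg16l1* ΔIEC libraries 3 and 4. The log2 difference from WT was 0.05 (95% interval -0.08 to 0.17, adjusted p = 0.575) in *Rnaseh2b* ΔIEC, 0.11 (95% interval 0.00 to 0.21, adjusted p = 0.131) in *Atg16l1* ΔIEC and -0.05 (95% interval -0.15 to 0.05, adjusted p = 0.512) in double-deletion organoids by limma. The interaction, -0.20 (95% interval -0.36 to -0.04, adjusted p = 0.051), was just above the threshold, and it was below it without *Atg16l1* ΔIEC library 1 (0.0183), *Atg16l1* ΔIEC library 2 (0.0408), *Atg16l1/Rnaseh2b* ΔIEC library 4 (0.049) or WT library 1 (0.0455), and with the stricter filter (0.0499). Without *Atg16l1* ΔIEC library 1, *Tapbp* passed in *Atg16l1* ΔIEC organoids (0.14, adjusted p = 0.0464).

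The immunoproteasome has the catalytic subunits encoded by *Psmb8*, *Psmb9* and *Psmb10*. Of the members, *Psmb9* had the largest interaction and the largest rise over WT in both single deletions in the fit without lane, but not in the fit with it. Its values were 6.94, 6.76, 6.62 and 6.61 in WT libraries 1 to 4, 7.26 and 7.37 in *Rnaseh2b* ΔIEC libraries 1 and 2, 7.02, 7.01, 7.42 and 7.16 in *Atg16l1* ΔIEC libraries 1 to 4 and 6.82, 7.01, 6.64 and 6.64 in *Atg16l1/Rnaseh2b* ΔIEC libraries 1 to 4. All libraries of both single deletions were above all WT libraries, *Atg16l1* ΔIEC library 3 was the highest of all, and the double deletion overlapped with WT and, through library 2, with *Atg16l1* ΔIEC. *Psmb9* rose by 0.58 (SE 0.13, adjusted p = 0.00718) in *Rnaseh2b* ΔIEC and by 0.42 (SE 0.11, adjusted p = 0.0172) in *Atg16l1* ΔIEC organoids by limma, or 1.5-fold and 1.34-fold. In double-deletion organoids the difference was 0.05 (95% interval -0.19 to 0.28, adjusted p = 0.804), -0.03 without *Atg16l1/Rnaseh2b* ΔIEC library 2 and -0.10 with lane as a covariate. The interaction was -0.96 (SE 0.17, adjusted p = 0.0012). The adjusted p of the rise was 0.0796 in *Rnaseh2b* ΔIEC organoids without library 2, and in *Atg16l1* ΔIEC organoids it was 0.0503 without *Atg16l1* ΔIEC library 3 and 0.0501 without WT library 3. With lane as a covariate, the difference was 0.30 in *Rnaseh2b* ΔIEC (adjusted p = 0.29) and 0.14 in *Atg16l1* ΔIEC organoids (adjusted p = 0.616), and the interaction was -0.53 (adjusted p = 0.145).

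*Psmb8* had values of 6.53, 6.33, 6.22 and 6.21 in WT libraries 1 to 4, 6.70 and 6.73 in *Rnaseh2b* ΔIEC libraries 1 and 2, 6.37, 6.29, 6.62 and 6.49 in *Atg16l1* ΔIEC libraries 1 to 4 and 6.25, 6.31, 6.01 and 6.21 in *Atg16l1/Rnaseh2b* ΔIEC libraries 1 to 4. Both *Rnaseh2b* ΔIEC libraries were above all others, WT library 1 stood above the other WT libraries, and *Atg16l1* ΔIEC and *Atg16l1/Rnaseh2b* ΔIEC libraries overlapped with WT. *Psmb8* rose by 0.39 (SE 0.11, adjusted p = 0.0183) in *Rnaseh2b* ΔIEC organoids by limma, and differed by 0.12 (95% interval -0.07 to 0.31, adjusted p = 0.362) in *Atg16l1* ΔIEC and by -0.13 (95% interval -0.32 to 0.06, adjusted p = 0.335) in double-deletion organoids. The interaction was -0.64 (SE 0.14, adjusted p = 0.00387). The adjusted p of the rise was 0.0958 without *Rnaseh2b* ΔIEC library 1 and 0.122 without library 2. With lane as a covariate, the difference in *Rnaseh2b* ΔIEC organoids was 0.22 (adjusted p = 0.374), that in *Atg16l1* ΔIEC organoids was -0.05, and the interaction was -0.39 (adjusted p = 0.222).

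*Psmb10* differed from the other catalytic subunits in its order of genotypes. Its values were 10.05, 10, 9.93 and 9.92 in WT libraries 1 to 4, 9.996 and 9.94 in *Rnaseh2b* ΔIEC libraries 1 and 2, 10.11, 10.06, 10.11 and 10.21 in *Atg16l1* ΔIEC libraries 1 to 4 and 10.001, 10.03, 9.81 and 9.85 in *Atg16l1/Rnaseh2b* ΔIEC libraries 1 to 4. Here the *Atg16l1* ΔIEC libraries were above all other libraries, although the lowest of them was within 0.01 of WT library 1, and the *Rnaseh2b* ΔIEC libraries lay among WT. The log2 difference from WT was 0.15 (95% interval 0.03 to 0.26, adjusted p = 0.0695) in *Atg16l1* ΔIEC, -0.01 (95% interval -0.15 to 0.13, adjusted p = 0.957) in *Rnaseh2b* ΔIEC and -0.05 (95% interval -0.17 to 0.06, adjusted p = 0.511) in double-deletion organoids by limma, with an exact permutation p of 0.029 in *Atg16l1* ΔIEC organoids. With upper quartile scaling the difference in *Atg16l1* ΔIEC organoids was 0.16 (adjusted p = 0.0466), when only the groups compared were fitted its adjusted p was 0.0483, and with lane as a covariate it was -0.04. The small difference in *Rnaseh2b* ΔIEC organoids was 0.02 without *Rnaseh2b* ΔIEC library 2 or WT library 1, and 0.002 without WT library 2. The interaction was -0.19 (95% interval -0.37 to -0.01, adjusted p = 0.088), and it passed without *Atg16l1/Rnaseh2b* ΔIEC library 2 (-0.23, adjusted p = 0.0438) and was 0.08 with lane as a covariate. Between the double deletion and *Rnaseh2b* ΔIEC organoids the difference was -0.05 (adjusted p = 0.621), 0.01 with total scaling and 0.04 with lane as a covariate.

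*Nlrc5*, a transactivator of class I genes, was barely detected. Its values were 1.65, 1.66, 1.65 and 1.70 in WT libraries 1 to 4, 1.73 and 1.69 in *Rnaseh2b* ΔIEC libraries 1 and 2, 1.73, 1.69, 1.72 and 1.68 in *Atg16l1* ΔIEC libraries 1 to 4 and 1.65, 1.70, 1.71 and 1.68 in *Atg16l1/Rnaseh2b* ΔIEC libraries 1 to 4. They spanned less than 0.1 on a scale that draws low genes together, and the groups overlapped, with exact permutation p from 0.086 to 0.93 over the 6 pairs of genotypes.

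**Figure D2:**
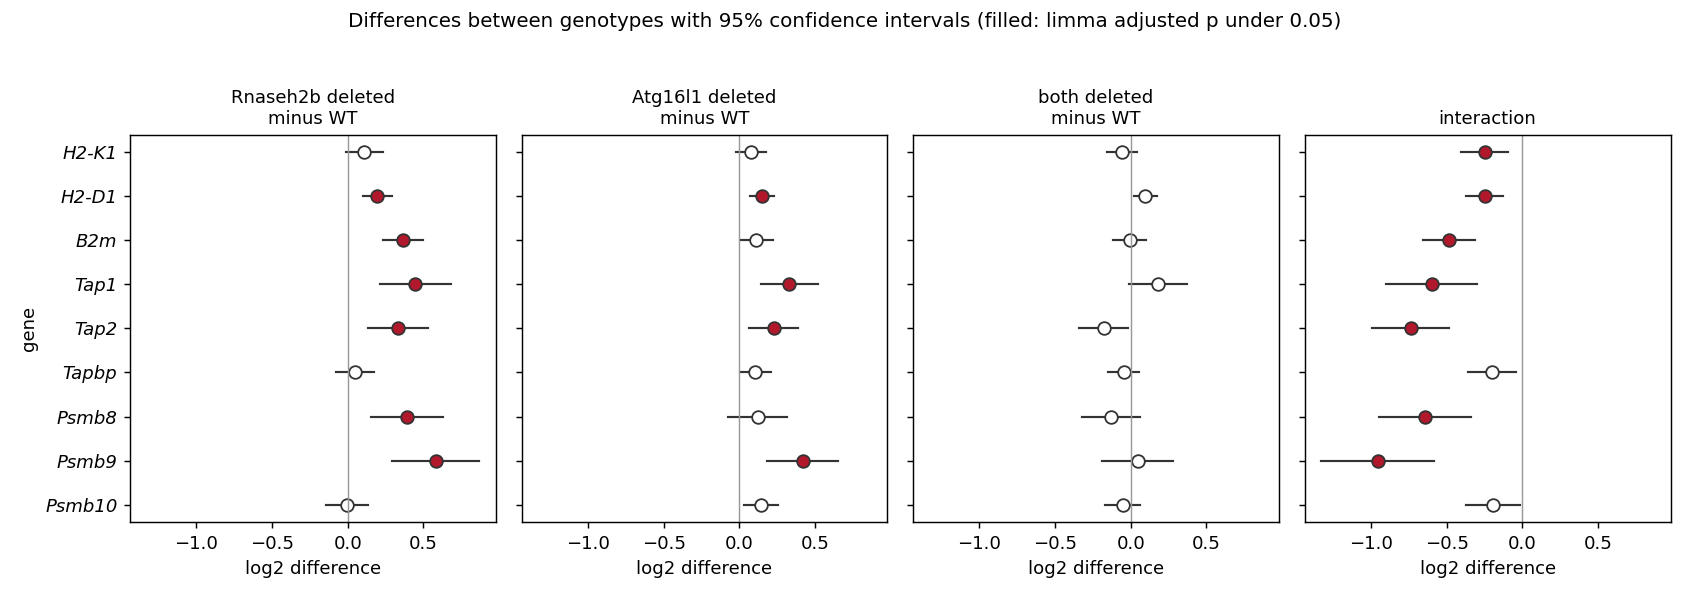
Log2 differences (points) of the 9 tested members with 95% confidence intervals (lines); filled points have a limma adjusted p under 0.05. Against WT, filled points show rises of 6 members with *Rnaseh2b* deleted and 4 with *Atg16l1* deleted, beside 14.4 and 8.73% of all tested genes. With both deleted 0 points are filled, though the intervals of *H2-D1* (above 0) and *Tap2* (below 0) exclude 0. In that comparison, 4224 of the 12802 tested genes had a limma unadjusted p under 0.05. The interaction is negative for all 9 members.

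Set against the single deletions, the double deletion had lower values of many members. Against *Rnaseh2b* ΔIEC organoids, 0 of 9 members were higher, beside 11.1% of all tested genes, and 5 fell, beside 14.4%: *H2-K1* (-0.17), *B2m* (-0.37), *Tap2* (-0.51), *Psmb8* (-0.52) and *Psmb9* (-0.54). Their limma adjusted p-values were 0.0415, 0.0014, 0.00208, 0.0048 and 0.0116. The median over the 9 members was -0.27, and it was -0.35 within lane 2, where 5 members again fell, beside 16.3% of all tested genes, with *Tap1* (-0.35, adjusted p = 0.0111) past the threshold and *H2-K1* (-0.09, adjusted p = 0.239) not. The count was 3 without *Rnaseh2b* ΔIEC library 1 and 2 without library 2, beside 7 and 3.82% of all tested genes called lower. *Psmb8* had an adjusted p of 0.0641 without *Rnaseh2b* ΔIEC library 2, and *Psmb9* one of 0.0542 without *Rnaseh2b* ΔIEC library 1 and 0.124 without library 2. The call for *H2-K1* was lost in 9 of the 14 fits that left out 1 library, with adjusted p up to 0.186, namely without either *Rnaseh2b* ΔIEC library, *Atg16l1* ΔIEC library 1, 2 or 4, *Atg16l1/Rnaseh2b* ΔIEC library 3 or 4, or WT library 2 or 3. It was also lost with upper quartile (0.0517) and total scaling (0.107), when only the groups compared were fitted (0.139), and with lane as a covariate (-0.09, adjusted p = 0.174). *H2-D1* passed without *Atg16l1/Rnaseh2b* ΔIEC library 2 (-0.13, adjusted p = 0.0439), and *Tap1* without *Atg16l1* ΔIEC library 3 (adjusted p = 0.0418) or in the fit with lane (adjusted p = 0.0425).

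Against *Atg16l1* ΔIEC organoids, 0 of 9 were higher, beside 12.6% of all tested genes, and 5 fell, beside 12.5%: *H2-K1* (-0.14), *Tap2* (-0.41), *Tapbp* (-0.15), *Psmb9* (-0.38) and *Psmb10* (-0.20). Their limma adjusted p-values were 0.0432, 0.00253, 0.031, 0.0249 and 0.0167. The median was -0.15. *Tap2* passed in all 14 fits that left out 1 library, and within lane 2 it was the 1 member called, beside 8.26% of all tested genes lower. Its call was lost with paired libraries averaged. The count of 5 became 2 without *Atg16l1* ΔIEC library 3, 1 without *Atg16l1* ΔIEC library 4, 2 without *Atg16l1/Rnaseh2b* ΔIEC library 3 and 3 without *Atg16l1/Rnaseh2b* ΔIEC library 4, beside 7.03, 6.99, 9.9 and 10.9% of all tested genes called lower. It was 2, beside 15.4%, with lane as a covariate, where the difference was -0.05 for *H2-K1* (adjusted p = 0.306), -0.23 for *Psmb9* (adjusted p = 0.143), -0.11 for *Psmb10* (adjusted p = 0.105) and 0.01 for *H2-D1*, which is -0.05 without the covariate. It was 2, beside 8.15%, when only the groups compared were fitted, where *H2-K1* (0.101), *Tapbp* (0.0768) and *Psmb9* (0.0546) were lost. *H2-K1* was lost in 10 of the 14 fits, with adjusted p up to 0.113, its call standing only without *Atg16l1/Rnaseh2b* ΔIEC library 1 or 2 or WT library 1 or 4, and it was lost with total scaling (0.0561) and no filter (0.0501). *Tapbp* was lost in 5 fits, with adjusted p up to 0.0927 (without *Atg16l1* ΔIEC library 3 or 4 or *Atg16l1/Rnaseh2b* ΔIEC library 1, 2 or 3), *Psmb9* in 4, up to 0.0785 (without *Atg16l1* ΔIEC or *Atg16l1/Rnaseh2b* ΔIEC library 3 or 4), and *Psmb10* without *Atg16l1* ΔIEC library 4 (0.0583). Members gained were *B2m* without *Atg16l1* ΔIEC library 1 (0.0419), and *Psmb8* without *Atg16l1* ΔIEC library 2 (0.034), *Atg16l1/Rnaseh2b* ΔIEC library 2 (0.0472) or WT library 1 (0.0367) and with upper quartile scaling (0.0496).

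Both single deletions were sequenced in lane 2, so a direct comparison of them is free of lane; it was added after the data had been seen. *B2m* was the 1 of 9 members higher in *Rnaseh2b* ΔIEC than in *Atg16l1* ΔIEC organoids, by 0.26 (SE 0.06, adjusted p = 0.0286) in the limma fit, beside 4.34% of all tested genes, and 0 were lower, beside 2.47%. The others differed by -0.15 (*Psmb10*, 95% interval -0.29 to -0.01) to 0.27 (*Psmb8*, 95% interval 0.04 to 0.51), and *H2-K1*, at 0.03, was at -0.00 with total scaling, just below 0. The adjusted p of *B2m* was 0.246 and 0.15 without *Rnaseh2b* ΔIEC library 1 or 2, 0.0563, 0.057 and 0.0681 without *Atg16l1* ΔIEC library 1, 2 or 4, and 0.0864 when only these groups were fitted.

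Within the double deletion, the mean of the lane 2 libraries minus that of the lane 1 libraries was 0.28 for *Psmb9*, 0.18 for *Psmb10*, 0.17 for *H2-K1*, 0.17 for *Psmb8* and 0.13 for *H2-D1*. It was -0.17 for *Tap1*, -0.14 for *Tap2*, -0.05 for *Tapbp*, -0.04 for *B2m* and -0.02 for *Nlrc5*. The sign was thus positive for both heavy chains and the 3 proteasome subunits and negative for the transporter, tapasin and light chain genes. In this group lane coincides with the pairing of libraries 1 and 2 and of 3 and 4, so the lanes and the pairs cannot be told apart.

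As a description over the 14 libraries, which include the differences between genotypes and the paired libraries, the 9 tested members were positively correlated in each of their 36 pairs, with Pearson's r from 0.15 to 0.89 and a median of 0.67. Per kilobase of exon, on the log2 scale, mean levels over all libraries were 12.93 for *B2m*, 12.36 for *H2-K1*, 11.05 for *H2-D1*, 9.23 for *Psmb10*, 8.60 for *Tapbp*, 6.48 for *Tap1*, 6.36 for *Tap2*, 5.08 for *Psmb9*, 4.62 for *Psmb8* and -1.40 for *Nlrc5*. The light chain and heavy chains were thus the most abundant per length, and *Psmb10* was well above the other immunoproteasome subunits.

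For the other lists, counts read against the shares of all tested genes called higher and lower: 14.4 and 12.3% in *Rnaseh2b* ΔIEC organoids, 8.73 and 10.4% in *Atg16l1* ΔIEC and 8.1 and 8.01% in double-deletion organoids against WT, 11.1 and 14.4% for the double deletion against *Rnaseh2b* ΔIEC, 12.6 and 12.5% for the double deletion against *Atg16l1* ΔIEC, 17 and 18.1% for the interaction, and 4.34 and 2.47% between the single deletions. A limma unadjusted p under 0.05 was found for 5029, 4388, 4224, 4948, 5017, 5841 and 2921 of the 12802 tested genes, in the same order.

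Genes for other class I and class I-like molecules were called in several comparisons. Of 17 tested, 5 rose in *Rnaseh2b* ΔIEC organoids, with a median of 0.15, 4 rose in *Atg16l1* ΔIEC organoids (median 0.20), and 1 fell in double-deletion organoids (median -0.15). The double deletion was lower for 7 of 17 against *Rnaseh2b* ΔIEC and for 9 against *Atg16l1* ΔIEC organoids, and the interaction was negative past the threshold for 10. Between the single deletions limma called 0, with 3 at an unadjusted p under 0.05. *H2-Q2* rose by 0.78 (SE 0.13, adjusted p = 0.0011) in *Rnaseh2b* ΔIEC and by 0.34 (SE 0.10, adjusted p = 0.0364) in *Atg16l1* ΔIEC organoids, with an interaction of -1.11 (SE 0.17, adjusted p = 0.000375). *H2-Q1* rose by 0.66 (SE 0.17, adjusted p = 0.0138) and 0.47 (SE 0.14, adjusted p = 0.0353), and *H2-T3* by 0.55 (SE 0.18, adjusted p = 0.0352) in *Rnaseh2b* ΔIEC organoids. *H2-T23*, which encodes Qa-1, differed from WT by 0.20 (95% interval 0.02 to 0.38, adjusted p = 0.0874) in *Rnaseh2b* ΔIEC and -0.15 (adjusted p = 0.135) in double-deletion organoids, and its interaction was -0.45 (SE 0.11, adjusted p = 0.00653). In the fit with lane, the adjusted p in *Rnaseh2b* ΔIEC organoids was 0.0543 for *H2-Q2*, 0.0904 for *H2-Q1* and 0.418 for *H2-T3* (0.34), that in *Atg16l1* ΔIEC organoids was 0.549 for *H2-Q2* (0.17) and 0.164 for *H2-Q1*, and that of the *H2-T23* interaction was 0.0891. The differences of *H2-Q2* and *H2-T3* were smaller in that fit, while those of *H2-Q1* and the *H2-T23* interaction were not. Without *Rnaseh2b* ΔIEC library 1 or 2, the rise in *Rnaseh2b* ΔIEC organoids had an adjusted p of 0.0739 and 0.111 for *H2-Q1* and of 0.187 and 0.133 for *H2-T3*, which was also lost without WT library 3 (0.0824) or 4 (0.0807) and with no filter (0.0549). In *Atg16l1* ΔIEC organoids the calls for *H2-Q2* and *H2-Q1* were also lost without *Atg16l1* ΔIEC library 3 (0.105 and 0.0939) or 4 (0.0787 and 0.0994) or WT library 3 (0.097 and 0.0689) or 4 (0.0996 and 0.0902), and with no filter (0.0581 and 0.0549). That for *H2-Q1* was lost without WT library 1 (0.0594) and when only the groups compared were fitted (0.0557).

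Peptide loading and trimming genes were called in both directions. Of 11 tested, 2 rose and 3 fell in *Rnaseh2b* ΔIEC organoids, 2 fell in *Atg16l1* ΔIEC organoids, and 1 rose and 2 fell in double-deletion organoids. Against *Rnaseh2b* ΔIEC organoids the double deletion was higher for 2 and lower for 1, against *Atg16l1* ΔIEC organoids higher for 5 and lower for 2, the interaction was positive for 3 and negative for 2, and *Rnaseh2b* ΔIEC organoids were higher than *Atg16l1* ΔIEC organoids for 1 and lower for 2. The aminopeptidase gene *Npepps* fell by limma in *Rnaseh2b* ΔIEC (-0.30, adjusted p = 0.00109), *Atg16l1* ΔIEC (-0.38, adjusted p = 6.79e-05) and double-deletion organoids (-0.14, adjusted p = 0.0361). *Lap3*, another aminopeptidase gene, rose by 0.24 (SE 0.06, adjusted p = 0.00911) in *Rnaseh2b* ΔIEC organoids, and *Tapbpl*, a relative of tapasin, fell there (-0.34, adjusted p = 0.00465). *Calr*, the chaperone calreticulin of the loading complex, rose by 0.15 (SE 0.04, adjusted p = 0.0295) in double-deletion organoids. *Erap1*, which trims peptides in the endoplasmic reticulum, differed from WT by -0.05 in *Rnaseh2b* ΔIEC organoids, 0.04 in *Atg16l1* ΔIEC and 0.02 in double-deletion organoids (adjusted p from 0.526 to 0.731). When lane was a covariate, the adjusted p in *Rnaseh2b* ΔIEC organoids was 0.078 for *Npepps* (-0.17), 0.513 for *Lap3* (0.07) and 0.216 for *Tapbpl* (-0.19), and in double-deletion organoids it was 0.249 for *Npepps* (-0.07) and 0.138 for *Calr*. *Lap3* had an adjusted p of 0.0564 and 0.0915 without *Rnaseh2b* ΔIEC library 1 or 2. In double-deletion organoids the call for *Calr* was lost without *Atg16l1/Rnaseh2b* ΔIEC library 1 or 2 or WT library 1, 2 or 4, with adjusted p up to 0.0821. There the call for *Npepps* was lost without either *Rnaseh2b* ΔIEC library, *Atg16l1/Rnaseh2b* ΔIEC library 1 or 2, or WT library 1, 3 or 4, with adjusted p up to 0.0939, with no filter (0.0508) and total scaling (0.0659), and when only the groups compared were fitted (0.0804).

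Some subunits of the standard proteasome rose in *Rnaseh2b* ΔIEC organoids too. Of the 3 standard catalytic subunits, *Psmb6* rose by 0.17 (SE 0.04, adjusted p = 0.00994) and *Psmb7* by 0.18 (SE 0.06, adjusted p = 0.0349) in the limma fit, and *Psmb5* differed by 0.06 (95% interval -0.06 to 0.19, adjusted p = 0.446). Limma called 0 of these 3 in *Atg16l1* ΔIEC or double-deletion organoids, with 1 at an unadjusted p under 0.05 in each. It called 0 in the comparisons between deletions, with 1, 0 and 1 at an unadjusted p under 0.05 for the double deletion against *Rnaseh2b* ΔIEC, the double deletion against *Atg16l1* ΔIEC and *Rnaseh2b* ΔIEC against *Atg16l1* ΔIEC organoids. The interaction passed for 1, *Psmb6*, at -0.18, and its adjusted p was 0.0914 with total scaling, 0.11 without *Rnaseh2b* ΔIEC library 1 and 0.714 in the fit with lane (-0.04). Of the 11 other subunits of the core particle, 8 rose in *Rnaseh2b* ΔIEC organoids, 3 in *Atg16l1* ΔIEC and 6 in double-deletion organoids. *Psmb3* rose in all of these, by 0.24, 0.15 and 0.18 (adjusted p = 0.00289, 0.0168 and 0.0101). In the fit with lane the adjusted p in *Rnaseh2b* ΔIEC organoids was 0.367 for *Psmb6* (0.08) and 0.686 for *Psmb7* (0.05), and that of *Psmb3* was 0.121 (0.16) in *Rnaseh2b* ΔIEC organoids, 0.471 (0.07) in *Atg16l1* ΔIEC and 0.0583 (0.14) in double-deletion organoids, with the log2 difference in brackets. *Psmb6* had an adjusted p of 0.128 without *Rnaseh2b* ΔIEC library 1, *Psmb3* in *Atg16l1* ΔIEC organoids one of 0.0523 without WT library 3, and the call for *Psmb7* was lost without either *Rnaseh2b* ΔIEC library (0.218 and 0.111) or WT library 2, 3 or 4 (0.0604, 0.0618 and 0.069), with total scaling (0.0991) and with no filter (0.0528). Of these 11, 1 was lower in the double deletion than in *Rnaseh2b* ΔIEC organoids, 4 had a negative interaction and 1 was higher in *Rnaseh2b* ΔIEC than in *Atg16l1* ΔIEC organoids. Between the double deletion and *Atg16l1* ΔIEC organoids limma called 0, with 1 at an unadjusted p under 0.05.

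Of 9 proteasome activator and assembly genes, limma called 0 in *Rnaseh2b* ΔIEC organoids (1 at an unadjusted p under 0.05), while 1 rose in *Atg16l1* ΔIEC and 1 in double-deletion organoids. *Psme1*, a subunit of the interferon-inducible activator PA28, rose by 0.12 (SE 0.03, adjusted p = 0.0164) in *Atg16l1* ΔIEC organoids and had an interaction of -0.25 (SE 0.05, adjusted p = 0.00183). Its partner *Psme2* differed by 0.10 in *Rnaseh2b* ΔIEC (adjusted p = 0.25) and 0.10 in *Atg16l1* ΔIEC organoids (adjusted p = 0.181), with an interaction of -0.24 (adjusted p = 0.0272). Of the 9, 1 was lower in the double deletion than in *Rnaseh2b* ΔIEC organoids, 2 were higher and 2 lower than in *Atg16l1* ΔIEC organoids, and the interaction was positive for 1 and negative for 2. Between the single deletions limma called 0, and 0 had an unadjusted p under 0.05. With the lane covariate, the adjusted p of *Psme1* was 0.205 in *Atg16l1* ΔIEC organoids and 0.061 for the interaction, with differences close to those without it. The interaction of *Psme2* was then -0.03 (adjusted p = 0.867). The rise of *Psme1* had an adjusted p of 0.0521 without *Atg16l1* ΔIEC library 3 and 0.0511 without WT library 3. The interaction of *Psme2* was lost without *Rnaseh2b* ΔIEC library 2 (0.137) or *Atg16l1* ΔIEC library 3 (0.0522) or 4 (0.0526) and with total scaling (0.055), and its adjusted p was 0.05 without *Rnaseh2b* ΔIEC library 1.

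Transcriptional regulators of class I genes showed no common direction. Of 20 tested, 1 rose and 2 fell in *Rnaseh2b* ΔIEC, 4 rose and 3 fell in *Atg16l1* ΔIEC, and 2 rose and 1 fell in double-deletion organoids, with medians of -0.01, 0.04 and -0.03. Against *Rnaseh2b* ΔIEC organoids the double deletion was higher for 4 and lower for 2, against *Atg16l1* ΔIEC organoids higher for 4 and lower for 3, and the interaction was positive for 4 and negative for 4. Between the single deletions limma called 0, with 3 at an unadjusted p under 0.05. *Irf1*, a transcription factor induced by interferon-γ, differed by 0.19 (95% interval -0.03 to 0.40, adjusted p = 0.186) in *Rnaseh2b* ΔIEC organoids, 0.15 in *Atg16l1* ΔIEC and 0.09 in double-deletion organoids (adjusted p = 0.219 and 0.464). *Rfx5*, which binds class I and class II promoters, rose by 0.18 (SE 0.06, adjusted p = 0.0484) in *Atg16l1* ΔIEC organoids and differed by -0.01 in *Rnaseh2b* ΔIEC organoids (adjusted p = 0.96). *Nfya*, a subunit of the CCAAT-binding factor NF-Y, fell by limma in *Rnaseh2b* ΔIEC (-0.36, adjusted p = 0.000159), *Atg16l1* ΔIEC (-0.35, adjusted p = 5.18e-05) and double-deletion organoids (-0.13, adjusted p = 0.0325). The call for *Rfx5* was lost in 11 of the 14 fits that left out 1 library, standing only without *Atg16l1* ΔIEC library 1 or 2 or *Atg16l1/Rnaseh2b* ΔIEC library 1, with adjusted p up to 0.141. It was also lost with lane as a covariate (0.11, adjusted p = 0.523), with no filter (0.0636) and when only the groups compared were fitted (0.0901). The call for *Nfya* in double-deletion organoids was lost without *Atg16l1/Rnaseh2b* ΔIEC library 1 or 2 or WT library 2, 3 or 4 (adjusted p up to 0.0902), with lane as a covariate (0.123) and with total scaling (0.0806).

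Among 19 interferon-inducible genes tested, 5 rose in *Rnaseh2b* ΔIEC organoids, 7 in *Atg16l1* ΔIEC and 3 in double-deletion organoids against WT, with medians of 0.21, 0.28 and 0.12. Against *Rnaseh2b* ΔIEC organoids the double deletion was higher for 1 and lower for 2, against *Atg16l1* ΔIEC organoids lower for 4, and the interaction was negative for 6. Between the single deletions limma called 0, with 3 at an unadjusted p under 0.05. *Parp14* rose by 0.56 (SE 0.16, adjusted p = 0.0179) in *Rnaseh2b* ΔIEC and 0.66 (SE 0.13, adjusted p = 0.0035) in *Atg16l1* ΔIEC organoids, *Igtp*, an interferon-γ-inducible GTPase, by 0.42 (SE 0.11, adjusted p = 0.0108) and 0.43 (SE 0.09, adjusted p = 0.0042). In double-deletion organoids the genes that rose were *Oas1a*, by 0.63 (SE 0.11, adjusted p = 0.00414), *Cxcl10*, by 0.83 (SE 0.21, adjusted p = 0.0209), and *Isg15*, by 0.66 (SE 0.18, adjusted p = 0.0281). In *Atg16l1/Rnaseh2b* ΔIEC libraries 1 to 4 the values were 7.26, 7.30, 7.66 and 7.82 for *Oas1a*, 4.74, 5.10, 5.77 and 6.03 for *Cxcl10* and 4.89, 5.13, 5.67 and 5.91 for *Isg15*, so libraries 3 and 4, in lane 1, were above libraries 1 and 2. The WT values were 6.85, 6.96, 6.93 and 6.79 for *Oas1a*, 4.54, 4.57, 4.59 and 4.62 for *Cxcl10* and 4.69, 4.75, 4.82 and 4.71 for *Isg15*. With lane as a covariate, the differences from WT given here for *Parp14*, *Igtp*, *Oas1a*, *Cxcl10* and *Isg15* were all larger. The call for *Cxcl10* was lost without WT library 1 (0.0552) or 2 (0.0534) and when only the groups compared were fitted (0.0626). That for *Isg15* was lost without *Atg16l1/Rnaseh2b* ΔIEC library 3 (0.0629) or 4 (0.0518) or WT library 1, 2 or 4 (0.0703, 0.0639 and 0.0526), and when only the groups compared were fitted (0.0648). In *Rnaseh2b* ΔIEC organoids *Parp14* had an adjusted p of 0.12 and 0.0959, and *Igtp* of 0.0582 and 0.105, without *Rnaseh2b* ΔIEC library 1 or 2.

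Of 12 interferon receptor, kinase and feedback genes, 1 fell in *Rnaseh2b* ΔIEC organoids, 1 in *Atg16l1* ΔIEC and 2 in double-deletion organoids. The interferon-γ receptor gene *Ifngr1* fell by limma in *Rnaseh2b* ΔIEC (-0.53, adjusted p = 0.00526) and *Atg16l1* ΔIEC organoids (-0.39, adjusted p = 0.0111), and *Ifngr2* and *Jak2* in double-deletion organoids (-0.25 and -0.18, adjusted p = 0.000904 and 0.00777). With the lane covariate, the difference of *Ifngr1* was -0.13 in *Rnaseh2b* ΔIEC (adjusted p = 0.41) and 0.01 in *Atg16l1* ΔIEC organoids (adjusted p = 0.968), the latter of opposite sign. Its adjusted p in *Rnaseh2b* ΔIEC organoids was 0.0622 without *Rnaseh2b* ΔIEC library 1, and that of *Jak2* was 0.0749 within lane 1. Of the 12, 2 were lower in the double deletion than in *Rnaseh2b* ΔIEC and 2 than in *Atg16l1* ΔIEC organoids, and the interaction was positive for 1. Between the single deletions limma called 0, and 0 had an unadjusted p under 0.05.

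Of the MHC class II presentation genes the deposited table has 10, of which 5 were below the filter, *Ciita* among them. Of the 5 tested 1 rose in *Rnaseh2b* ΔIEC, 1 rose and 1 fell in *Atg16l1* ΔIEC, and 2 fell in double-deletion organoids. The double deletion was lower for 3 than *Rnaseh2b* ΔIEC and for 2 than *Atg16l1* ΔIEC organoids, and 2 interactions were negative. Between the single deletions limma called 0, with 1 at an unadjusted p under 0.05. *H2-DMa*, which edits class II peptides, rose by 0.37 (SE 0.12, adjusted p = 0.041) in *Rnaseh2b* ΔIEC organoids, fell in double-deletion organoids (-0.39, adjusted p = 0.0213) and had an interaction of -0.93 (SE 0.16, adjusted p = 0.000876). *Cd74*, the invariant chain, differed from WT by 0.14, 0.13 and 0.16 in *Rnaseh2b* ΔIEC, *Atg16l1* ΔIEC and double-deletion organoids (adjusted p from 0.0505 to 0.133). In the fit with lane, *H2-DMa* had a difference of 0.23 in *Rnaseh2b* ΔIEC organoids (adjusted p = 0.427) and an interaction of -0.73 (adjusted p = 0.0659). The rise in *Rnaseh2b* ΔIEC organoids was lost without either *Rnaseh2b* ΔIEC library (0.159 and 0.188), *Atg16l1* ΔIEC library 4 (0.0526), *Atg16l1/Rnaseh2b* ΔIEC library 4 (0.0501) or WT library 3 or 4 (0.0929 and 0.0924), with no filter (0.0569) and when only the groups compared were fitted (0.0872). The fall in double-deletion organoids was lost without WT library 1 (0.0673) or 2 (0.0666), within lane 1 (0.0909) and when only the groups compared were fitted (0.0658). *Ciita*, the class II transactivator, had values of 1.70, 1.67, 1.67 and 1.67 in WT libraries 1 to 4, 1.80 and 1.75 in *Rnaseh2b* ΔIEC libraries 1 and 2, 1.74, 1.74, 1.76 and 1.81 in *Atg16l1* ΔIEC libraries 1 to 4 and 1.70, 1.70, 1.67 and 1.67 in *Atg16l1/Rnaseh2b* ΔIEC libraries 1 to 4.

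The genes that the naming rule picks from all lists, other than the members and targeted genes and including the markers and most similar genes described next, had 287 calls over the 7 comparisons. When lane was a covariate 122 of them were lost: 31 of 45 in *Rnaseh2b* ΔIEC, 26 of 42 in *Atg16l1* ΔIEC and 15 of 33 in double-deletion organoids against WT, 8 of 46 for the double deletion against *Rnaseh2b* ΔIEC and 12 of 55 for the double deletion against *Atg16l1* ΔIEC organoids, 30 of 57 for the interaction and 0 of 9 between the single deletions. Total scaling lost 18 of the 287, no filter 37, upper quartile scaling 5, eBayes without a trend 9 and averaging the paired libraries all 287. Fitting only the groups compared lost 43 of 230, within lane 1 lost 15 of 33, within lane 2 lost 32 of 101 and the stricter filter lost 1 of 272. The replicate number as a block lost 42 of the 287. Total scaling also moved the share of all called genes that were higher, from 54 to 39.6% in *Rnaseh2b* ΔIEC organoids against WT, from 43.4 to 64.6% in the double deletion against *Rnaseh2b* ΔIEC organoids, from 63.8 to 44.4% between the single deletions and from 48.5 to 62.3% for the interaction.

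Markers of mature enterocytes, the absorptive cells, were examined next. Of 11, all in the table, 9 rose in *Rnaseh2b* ΔIEC organoids (median 1.22), 1 rose in *Atg16l1* ΔIEC organoids, and 1 rose and 3 fell in double-deletion organoids. Relative to *Rnaseh2b* ΔIEC organoids 10 were lower in the double deletion and relative to *Atg16l1* ΔIEC organoids 4, 9 interactions were negative, and 4 were higher in *Rnaseh2b* ΔIEC than in *Atg16l1* ΔIEC organoids. The summed level on the linear scale was 266500 and 294900 in *Rnaseh2b* ΔIEC, 147500, 136300, 228700 and 194400 in *Atg16l1* ΔIEC, 119100, 151500, 109100 and 114500 in the double deletion and 196400, 172200, 133200 and 129000 in WT libraries, with *Sis* the most abundant. The *Rnaseh2b* ΔIEC libraries were highest, *Atg16l1* ΔIEC libraries 3 and 4 stood above libraries 1 and 2, and WT libraries 1 and 2 above 3 and 4, as for several members. *Apoa4* rose by 1.37 (SE 0.18, adjusted p = 0.000247) and *Fabp2* by 1.26 (SE 0.17, adjusted p = 0.00033) in *Rnaseh2b* ΔIEC organoids by limma. In bulk samples, fewer cells of a type and less RNA per cell cannot be told apart.

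Of 12 goblet, enteroendocrine and tuft cell markers, 5 fell in *Rnaseh2b* ΔIEC and 5 in *Atg16l1* ΔIEC organoids, and 1 rose and 1 fell in double-deletion organoids. The double deletion was higher for 7 than *Rnaseh2b* ΔIEC and for 8 than *Atg16l1* ΔIEC organoids, 8 interactions were positive, and 1 was lower in *Rnaseh2b* ΔIEC than in *Atg16l1* ΔIEC organoids. Their summed level was 64910 and 59500 in *Rnaseh2b* ΔIEC, 69470, 69150, 54030 and 62160 in *Atg16l1* ΔIEC, 116500, 107200, 112400 and 107200 in the double deletion and 76690, 75950, 106000 and 104800 in WT libraries, with *Fcgbp* the most abundant. Of 9 stem cell markers, 2 fell in *Rnaseh2b* ΔIEC organoids, 7 in *Atg16l1* ΔIEC and 1 in double-deletion organoids. Their sum was 39030 and 37390 in *Rnaseh2b* ΔIEC, 36200, 36330, 30150 and 31040 in *Atg16l1* ΔIEC, 50850, 42420, 43050 and 42620 in the double deletion and 48140, 48700, 44480 and 45540 in WT libraries, with *Slc12a2* on top. The double deletion was higher for 2 and lower for 1 than *Rnaseh2b* ΔIEC organoids and higher for 5 than *Atg16l1* ΔIEC organoids, 5 interactions were positive, and between the single deletions limma called 0, with 5 at an unadjusted p under 0.05.

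Of 9 Paneth cell markers, limma called 0 in either single deletion (0 in *Rnaseh2b* ΔIEC and 2 in *Atg16l1* ΔIEC organoids at an unadjusted p under 0.05), and 4 rose in double-deletion organoids. Their sum was 32540 and 27340 in *Rnaseh2b* ΔIEC, 33510, 35540, 22540 and 23690 in *Atg16l1* ΔIEC, 59860, 46910, 48820 and 45310 in the double deletion and 33030, 32040, 34960 and 34630 in WT libraries, with *Itln1* the most abundant. The double deletion was higher for 1 than *Rnaseh2b* ΔIEC and for 5 than *Atg16l1* ΔIEC organoids, 3 interactions were positive, and between the single deletions limma called 0, with 2 at an unadjusted p under 0.05. The part of these epithelial cell types in the results for the members was not tested.

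Markers of other tissues were examined last. The immune cell markers found numbered 8, and *Cd68* and *Itgam* passed the filter. Limma called 0 of them in any comparison, with 1 at an unadjusted p under 0.05 for the interaction, between the single deletions and in *Rnaseh2b* ΔIEC organoids against WT, where *Cd68* differed by -0.35 (adjusted p = 0.0629). The summed level was 109 and 108.2 in *Rnaseh2b* ΔIEC, 119.3, 125.7, 126.1 and 128.2 in *Atg16l1* ΔIEC, 104.5, 124.8, 143.4 and 131.8 in the double deletion and 127.9, 122, 135.6 and 134.5 in WT libraries, with *Cd68* the most abundant and the *Rnaseh2b* ΔIEC libraries among the lowest. The defining marker *Ptprc* had mean values of 0.49 in WT and 0.48 in *Rnaseh2b* ΔIEC, *Cd3e* of -1.33 and -1.33 and *Cd79a* of -0.95 and -0.95 on the log2 scale. Of 8 stromal and endothelial markers 4 were tested, and 1 fell in double-deletion organoids, where 2 were lower than in *Atg16l1* ΔIEC organoids. In the other comparisons of these 4 limma called 0, with 1 at an unadjusted p under 0.05 between the single deletions and 0 elsewhere. Their sums ran from 588.7 to 775.7, with *Lyve1* on top and *Col1a2* at -1.33 in WT. The epithelial label held: the 8 epithelial markers were all tested, with sums from 147900 to 168100 and *Krt19* on top, 2 rose in *Rnaseh2b* ΔIEC organoids, 1 fell in *Atg16l1* ΔIEC, and 1 rose and 1 fell in double-deletion organoids. For these 8, the double deletion was higher for 1 and lower for 2 than *Rnaseh2b* ΔIEC organoids and higher for 2 and lower for 1 than *Atg16l1* ΔIEC organoids, with 2 positive and 2 negative interactions, and between the single deletions limma called 0, with 1 at an unadjusted p under 0.05.

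The 10 tested genes whose values most resembled the mean of the members' centred values over the 14 libraries, which share genotypes and paired libraries, were *Aldh9a1* (Pearson's r = 0.979), *Btnl6* (0.974), *Ehhadh* (0.973), *Cideb* (0.972), *Decr1* (0.968), *Tmem8* (0.968), *Unc93a* (0.966), *Hes2* (0.966), *Fmo1* (0.965) and *Gstm4* (0.964). Since they were picked for this likeness, their differences between genotypes are no separate result. *Ehhadh* and *Decr1* encode enzymes of fatty acid oxidation, and *Fmo1* and *Gstm4* enzymes of detoxification.

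On GRCm38 (GENCODE M21), 7 of the 10 members lie on chromosome 17 within 1351601 bases, in the order *Tapbp*, *H2-K1*, *Psmb9*, *Tap1*, *Psmb8*, *Tap2* and *H2-D1*. *B2m* is on chromosome 2, and *Psmb10* and *Nlrc5* are on chromosome 8. *Psmb9* (chr17:34181987-34187764, minus strand) and *Tap1* (chr17:34187553-34197225, plus strand) overlap at their starts. Reads of 50 bases from class I genes can match more than 1 gene: 9.63% of the 50-base stretches of *H2-K1* and 12.8% of those of *H2-D1* occur in other genes, on either strand, most often in *H2-Q10* and *H2-Q1*. The share was 23.2% for *Tapbp*, 11.9% for *Psmb8*, 11.6% for *Tap2*, 4.19% for *Psmb9*, 3.33% for *Tap1*, 0.338% for *Nlrc5* and 0 for *B2m* and *Psmb10*. For *Tapbp*, *Psmb8*, *Tap2*, *Psmb9*, *Tap1* and *Nlrc5* most of these stretches are shared with an overlapping gene on the other strand. How such reads were counted, and whether counting used the strand, is not given.

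Promoter sequences of 8 of the 10 members were found in the RefSeq table (build GRCm38.p6), in 9 entries, and *Tap2* and *Nlrc5* have no entry. The 250 bases before the start that this table gives were searched on both strands for 5 motifs. For *H2-D1*, *Tapbp*, *Tap1*, *Psmb8* and *Psmb9*, all 250 of these bases lie within exons of the gene annotation used here, so their windows hold transcribed sequence. GAAANNGAAA, a form of the interferon-stimulated response element, was in 1 member (*B2m*) and in 2.98% of all 32851 promoters. TTCNNNGAA was in *Psmb8* and in 7.02% of all. GGGANNNNCC, a κB-like motif, was in *B2m*, *H2-K1* and *H2-D1*, and in 17.6% of all. CCAAT was in 6 members (*B2m*, *H2-K1*, *H2-D1*, *Tap1*, *Tapbp* and *Psmb9*) and in 33.8% of all, and TGACG in 5 (*B2m*, *H2-K1*, *H2-D1*, *Tap1* and *Psmb9*) and in 17.8% of all. The windows of *Tap1* and *Psmb9* overlap, and their matches to CCAAT and to TGACG are the same sites read from opposite strands.

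The upstream sequences of *B2m* (chr2:122147437-122147686, plus strand) and of the first *H2-K1* entry (chr17:34000348-34000597, minus strand) are shown, 5′ to 3′ on the gene's strand, since the light chain and a heavy chain hold the same 3 motifs in the same order. Capitals mark the matches: in *B2m* GAAANNGAAA, GGGANNNNCC overlapping with itself on the opposite strand, TGACG and CCAAT on the opposite strand, and in *H2-K1* the last 3 of these. A match describes the letters and does not show a bound site.
B2m: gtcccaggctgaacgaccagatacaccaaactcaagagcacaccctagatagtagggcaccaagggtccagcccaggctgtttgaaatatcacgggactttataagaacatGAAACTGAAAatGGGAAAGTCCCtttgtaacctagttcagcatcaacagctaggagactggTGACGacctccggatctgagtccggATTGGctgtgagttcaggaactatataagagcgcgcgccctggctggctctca
H2-K1: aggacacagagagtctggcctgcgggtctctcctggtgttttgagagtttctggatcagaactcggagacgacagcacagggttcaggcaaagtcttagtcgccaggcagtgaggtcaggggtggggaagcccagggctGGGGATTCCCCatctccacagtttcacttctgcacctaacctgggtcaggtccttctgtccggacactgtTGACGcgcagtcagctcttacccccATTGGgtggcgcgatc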

How the data were processed

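Per the labels, untreated organoid RNA was sequenced on a HiSeq3000 (TruSeq stranded mRNA). The authors used cutadapt, TopHat2 (GRCm38), HTSeq and DESeq2, versions not given, and deposited normalized expression values on a log2 scale for 18781 genes in 14 libraries, with the transformation not named. Symbols matched 99.7% of gene identifiers (GENCODE M21). The filter kept genes averaging 3.32 or more (linear value 10), which were fitted by limma 3.58.1 in R 4.3.3 (lmFit, contrasts.fit, eBayes with a mean trend), 1 mean per genotype, no covariate, with Benjamini-Hochberg adjustment over 12802 genes. The method was tested on data simulated independently for each library, so that test covers neither paired libraries nor an effect of lane. Members and lists were chosen with earlier results of these data known. Named genes are the 10 members, the targeted genes, up to 4 genes per list with the smallest adjusted p in a comparison, further pathway genes and regulators named by symbol, and the 10 most similar genes. Alternatives were other filters (none, or 50), upper quartile and total scaling, pseudocounts of 1 and 5, a lane covariate, replicate number as block, other fits, averaged pairs and leaving out each library. Figures were drawn with matplotlib 3.10.9.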

Additional observations from a re-analysis of the deposited data

Results flagged for a closer look

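One library stood far from the others of its group: WT library 2 had an *Atg16l1* value of 9.54, while the other WT libraries were between 9.43 and 9.44. Among the 36 groups of 4 libraries examined, 1 stood out in this way, and chance gives about 1 in 20.

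The limma test of the interaction, the effect of deleting *Rnaseh2b* with minus without *Atg16l1* deleted, passed for 7 members in the fit without covariates. The difference was -0.25 for *H2-K1*, -0.25 for *H2-D1*, -0.49 for *B2m*, -0.60 for *Tap1*, -0.74 for *Tap2*, -0.64 for *Psmb8* and -0.96 for *Psmb9*. It was 1.40 for *Atg16l1* and 0.55 for *Rnaseh2b*, the targeted genes themselves. When lane was a covariate, 3 of the 7 member interactions passed (*B2m*, *Tap1* and *Tap2*), with 0.00 for *H2-K1*, -0.05 for *H2-D1*, -0.39 for *Psmb8* and -0.53 for *Psmb9*, and when the paired libraries were averaged 0 passed.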

How the results depend on the processing

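Counts of members that passed kept within 1.5 times their value with no filter, the stricter filter, upper quartile scaling, both pseudocounts and eBayes without a trend, in all comparisons. With lane as a covariate, the count was 3 in *Rnaseh2b* ΔIEC organoids, 1 in *Atg16l1* ΔIEC and 1 in double-deletion organoids against WT, 2 for the double deletion against *Atg16l1* ΔIEC, and 3 for the interaction. That fit called 1504, 1586 and 1418 of all tested genes in *Rnaseh2b* ΔIEC, *Atg16l1* ΔIEC and double-deletion organoids against WT, where the fit without lane called 3424, 2450 and 2063. For the double deletion against *Atg16l1* ΔIEC it called 3976 against 3218 and for the interaction 2580 against 4499. The median of the members was with lane 0.22 in *Rnaseh2b* ΔIEC organoids against WT, -0.35 for the double deletion against *Rnaseh2b* ΔIEC and -0.39 for the interaction, and the *Rnaseh2b* interaction was 0.53 (adjusted p = 0.0788). Among interactions of named genes that passed without lane, those of opposite sign with it were 0.00 for *H2-K1* (0.0048), 0.0377 for *Psma6* and -0.0252 for *Krt18*. The interaction of *Psmb10*, which had not passed, went from -0.19 to 0.08. The difference of *Ifngr1* in *Atg16l1* ΔIEC organoids against WT reversed to 0.0079. Within lane 2 the count was 1 for the double deletion against *Atg16l1* ΔIEC, beside 2073 of all tested genes, and the median was -0.35 for the double deletion against *Rnaseh2b* ΔIEC. With total scaling the count in double-deletion organoids against WT was 1, beside 2028 of all tested genes. Fitting only the groups compared gave 2 for the double deletion against *Atg16l1* ΔIEC and 0 between the single deletions, beside 2065 and 833 of all tested genes. The cause of these changes was not tested. With no filter the median interaction was -0.37, over 10 members, since *Nlrc5* is then tested too.

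With paired libraries averaged, which leaves fewer samples and 1 value for *Rnaseh2b* ΔIEC, all limma calls of members were lost. Whether the fewer samples or the likeness of paired libraries accounts for the calls lost in this fit was not tested. *Rnaseh2b* then missed the threshold with unaltered differences, at -1.36 in *Rnaseh2b* ΔIEC and -0.73 in double-deletion organoids against WT, 0.63 for the double deletion against *Rnaseh2b* ΔIEC, -0.81 for the double deletion against *Atg16l1* ΔIEC, -1.44 between the single deletions and 0.55 for the interaction. *Atg16l1* did so at -1.07 in double-deletion organoids against WT, -1.13 for the double deletion against *Rnaseh2b* ΔIEC, 1.46 for the double deletion against *Atg16l1* ΔIEC and 1.40 for the interaction. The calls of *Atg16l1* in *Atg16l1* ΔIEC organoids against WT (-2.54) and between the single deletions (2.60) were not lost.

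With the replicate number as a block the counts were 5, 3 and 0 in *Rnaseh2b* ΔIEC, *Atg16l1* ΔIEC and double-deletion organoids against WT, 4 and 5 for the double deletion against *Rnaseh2b* ΔIEC and *Atg16l1* ΔIEC, 8 for the interaction and 0 between the single deletions. Of all tested genes it called 2890, 2666 and 2125 against WT, 2994 and 3355 for the double deletion against *Rnaseh2b* ΔIEC and *Atg16l1* ΔIEC, 4484 for the interaction and 424 between the single deletions, where the fit without it called 3424, 2450, 2063, 3262, 3218, 4499 and 872. Libraries of different genotypes with the same number do not go together, with r from -0.50 to 0.44 in 18 pairs, of which 7 were over 0.1.

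Leaving out each library gave counts from 1 to 6 in *Rnaseh2b* ΔIEC organoids, 1 to 5 in *Atg16l1* ΔIEC and 0 to 1 in double-deletion organoids against WT, 2 to 6 for the double deletion against *Rnaseh2b* ΔIEC, 1 to 6 against *Atg16l1* ΔIEC, 6 to 8 for the interaction and 0 to 1 between the single deletions. Of all tested genes, these fits called 1135 to 3832, 1659 to 2870 and 1001 to 2074 against WT, 757 to 3288 and 1827 to 3470 for the double deletion against *Rnaseh2b* ΔIEC and *Atg16l1* ΔIEC, 2706 to 4714 for the interaction and 90 to 1105 between the single deletions. Where this leaves 1 *Rnaseh2b* ΔIEC library, it is assumed to vary like the other groups. Alternatives for the comparison between the single deletions were chosen after seeing the data. The depth is unknown, so the precision of single values cannot be given.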
